A study of Arabidopsis thaliana with 8 samples.

Results

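*CHAT* (AT3G03480) encodes acetyl-CoA:(Z)-3-hexen-1-ol acetyltransferase, and 1 of the 22746 probe sets analysed on the array, 259054_at, was paired with it alone. That gene is 1 of the 13286 genes named on the array. RNA came from whole 4-day-old seedlings of *hy5-1*, which carries a mutation in *HY5*, and of its wild type *Ler*, kept on medium with 50 μM or 0 μM methyl jasmonate (MeJA) in darkness or under continuous FR light of 1.5 μmol m-2 s-1. Every one of the 8 conditions had 1 Affymetrix ATH1 array, so no condition was replicated and no ratio between 2 arrays has a replicate check. The groups were, under FR light and again in darkness, *hy5-1* with MeJA, *hy5-1* without MeJA, *Ler* with MeJA and *Ler* without MeJA. No probe set was paired with *HY5* in the annotation used, which left 8730 probe sets unnamed. The mutant label was therefore not checked on the gene itself. The gene was chosen by its MeJA and genotype ratios on these arrays, with earlier results of these data in view, and all values of *CHAT* are therefore given as a description, with no test.

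Green leaf volatiles are C6 aldehydes, alcohols and esters that leaves release after damage. They are made from polyunsaturated fatty acids in plastids, through a lipoxygenase and a hydroperoxide lyase, while allene oxide synthase takes the same kind of hydroperoxide into jasmonate synthesis. CHAT, a member of the BAHD family of acyl-CoA-dependent acyltransferases, catalyses the last step, in which (Z)-3-hexenol is acetylated to (Z)-3-hexenyl acetate. HY5 is a bZIP transcription factor that promotes photomorphogenesis.

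The deposited values are on a log scale, taken here as log2, and were centred by the authors for each probe set so that the median over the 4 FR arrays is 0 and, separately, the median over the 4 dark arrays is 0. The values therefore hold neither the level of *CHAT* nor a contrast of FR light with darkness, whereas they do hold ratios within a light. No source used here gives the log base, and every fold below assumes base 2. A ratio between dim signals cannot be told from one between bright signals in these values. In whole seedlings, fewer cells that express *CHAT* and less *CHAT* RNA per cell cannot be told apart.

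*CHAT* was higher with MeJA than without it in both genotypes and both lights. Under FR light the centred log2 value of *CHAT* was 1.17 in *hy5-1* with MeJA and -1.17 in *hy5-1* without MeJA, and it was 1.23 in *Ler* with MeJA and -1.83 in *Ler* without MeJA. In darkness it was 1.88 in *hy5-1* with MeJA and -1.88 in *hy5-1* without MeJA, and it was 2.24 in *Ler* with MeJA and -5.57 in *Ler* without MeJA. Within each light both treated arrays lay above both untreated arrays. The *hy5-1* values are equal in size and opposite in sign because they are the middle pair of the 4 values, which the centring places evenly around 0.

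**Figure D1:**
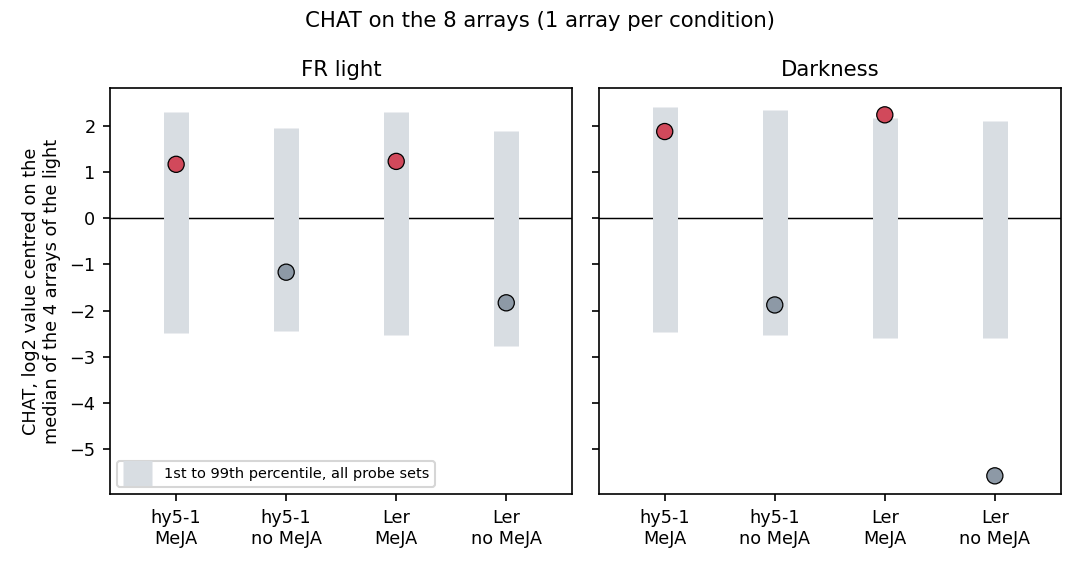
Centred log2 value of CHAT (y axis) on each of the 8 arrays (x axis: genotype and MeJA), under FR light on the left and in darkness on the right. Each point is 1 array, and the grey bars span the 1st to the 99th percentile of all probe sets on that array. The untreated dark Ler array, at -5.57, lies far below its bar.

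The untreated dark *Ler* value stood apart. It lay 3.70 below the next lowest dark value, that of untreated *hy5-1*, and only 4 of the 22746 probe sets on that array, *CHAT* among them, were at or below it. A gap at least as large between the untreated *Ler* array and the next lowest dark array was found for 13 probe sets, or 0.0572% of all. The other 7 values of *CHAT* were less extreme on their arrays, between percentile 2.12 (untreated dark *hy5-1*) and percentile 99.1 (treated dark *Ler*). The dark range of *CHAT* was 7.81, a range that 19 probe sets reached or passed, against a median range of 0.902 over all probe sets. Under FR light its range was 3.06, which 2401 probe sets reached or passed, against a median of 0.866. The 4 *CHAT* values of each light were all distinct.

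Under FR light the log2 ratio of *CHAT* with MeJA over without MeJA was 2.33 in *hy5-1* and 3.06 in *Ler*, or 5.04-fold and 8.33-fold. In darkness it was 3.75 in *hy5-1* and 7.81 in *Ler*, or 13.5-fold and 224-fold. All 4 ratios passed the 2-fold threshold of the study's methods. The share of all probe sets that were at least 2-fold higher with MeJA was 11.2% in *hy5-1* under FR light, 12.8% in *Ler* under FR light, 12.2% in *hy5-1* in darkness and 11.2% in *Ler* in darkness. Nothing is read from the position of *CHAT* against these shares, since the gene was chosen with its ratios known.

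By size of the ratio, *CHAT* ranked 849th from the top of 22746 probe sets in *hy5-1* under FR light, 579th in *Ler* under FR light, 229th in *hy5-1* in darkness and 9th in *Ler* in darkness. Among probe sets paired with 1 gene, the jasmonate-regulated gene *JRG21* at 8.49 stood next above it in dark *Ler* and AT1G32970 at 7.73 next below. Under FR light in *hy5-1* its nearest neighbours in the ranking were AT1G27285 at 2.34 and AT3G53600 at 2.33, and in *Ler* they were AT2G37900 and AT4G04120, both at 3.06. In dark *hy5-1* they were AT5G19100 and *PMEAMT*, both at 3.75. The position of *CHAT* thus ran from the top few in dark *Ler* to the top few percent (3.73% of probe sets above it) in *hy5-1* under FR light.

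**Figure D2:**
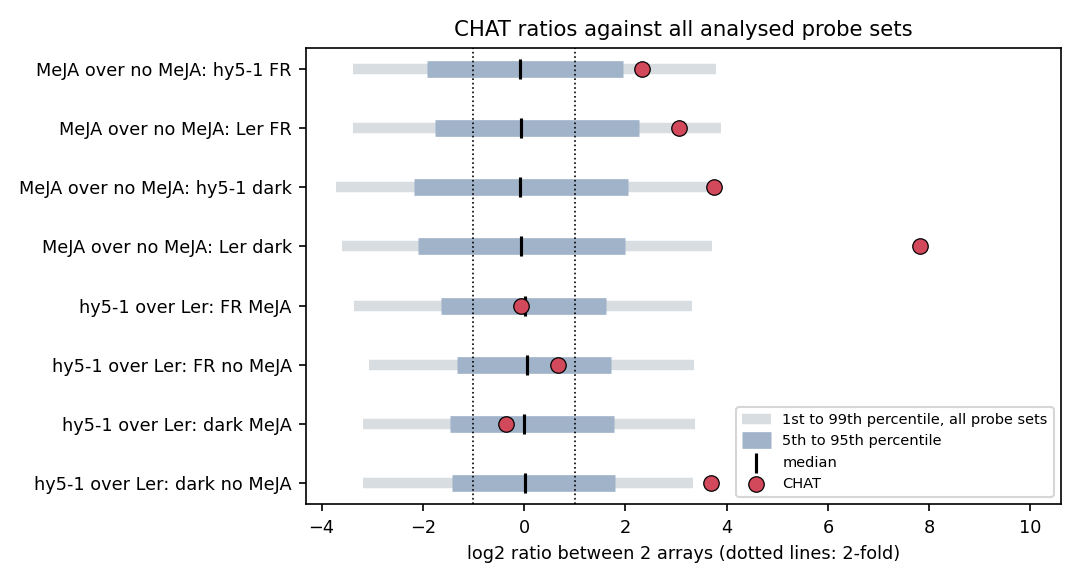
Log2 ratio between 2 arrays (x axis) for the 4 MeJA ratios and the 4 hy5-1 over Ler ratios (rows). Red points are CHAT, black ticks the median of all 22746 probe sets, and blue and grey bars their 5th to 95th and 1st to 99th percentiles. CHAT lies beyond the 99th percentile by a wide margin at 7.81 in dark Ler, and near 0 in the ratios between genotypes with MeJA.

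Averaged over the 4 pairs of arrays, which share no array, the MeJA ratio of *CHAT* was 4.24 ± 2.45 (SD, n = 4 pairs), with 4 of 4 positive. Of all probe sets, 0.382% had a mean above that of *CHAT*, and the median over all was -0.08. Nothing is read from this position, since the gene was chosen with its ratios known. Without the dark *Ler* pair the mean was 3.05.

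Between genotypes, *CHAT* differed most without MeJA and in darkness. The log2 ratio of *hy5-1* over *Ler* was 3.70 in untreated dark seedlings (13.0-fold) and -0.36 in MeJA-treated dark seedlings (0.779-fold). Under FR light it was -0.06 with MeJA (0.957-fold) and 0.66 without MeJA (1.58-fold). After quantile normalization within a light, the ratio was 0.32 under FR light without MeJA and -0.60 in darkness with MeJA. Only the untreated dark ratio passed 2-fold, and 9.64% of all probe sets were at least 2-fold higher in *hy5-1* in that comparison. The other 3 comparisons had 9.19% at least 2-fold higher under FR light without MeJA, 8.92% under FR light with MeJA and 9.00% in darkness with MeJA. At least 2-fold lower in *hy5-1* were 7.68% in darkness and 6.85% under FR light without MeJA, and 8.06% in darkness and 9.09% under FR light with MeJA.

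The rank of the untreated dark ratio was 121st of 22746 from the top, next to AT5G48140 at 3.70 above and AT2G13430 at 3.69 below among named genes. Under FR light without MeJA *CHAT* ranked 3251st. With MeJA it lay in the lower part of the ranking, 13070th under FR light and 17737th in darkness, with *VPS22* and *IAA33* as the named genes next above. The mean over the 4 pairs of light and MeJA was 0.98 ± 1.86 (SD, n = 4 pairs), smaller than its SD, with 2 of 4 ratios positive, and it was 0.08 without the untreated dark pair.

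The untreated dark *Ler* array enters both the largest MeJA ratio and the largest genotype ratio of *CHAT*, so these are not separate observations. The MeJA ratio in *hy5-1* minus that in *Ler* was -0.73 under FR light (-0.37 after quantile normalization) and -4.06 in darkness, which is the same quantity as the genotype ratio with MeJA minus the genotype ratio without MeJA. A difference at least as low was found for 17.7% of all probe sets under FR light and 1.31% in darkness. FR light minus darkness, the MeJA ratio differed by -1.42 in *hy5-1* and by -4.75 in *Ler*, with 8.81% and 0.492% of probe sets at or below. With 1 array per condition, none of these differences could be tested.

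*CHAT* was among 551 probe sets, 2.42% of all, that were at least 2-fold higher with MeJA in all 4 pairs. Their median of the 4-pair mean was 2.32, and 87 of them had a higher mean than *CHAT*. The SD of the 4 ratios was 2.45 for *CHAT*, larger than that of all but 3 of the 551, whose median SD was 0.514. In darkness none of the 551 had a lower difference between the *hy5-1* and *Ler* MeJA ratios than *CHAT*, and their median difference was 0.20. Under FR light 88 had a lower one. The ratio of *hy5-1* over *Ler* in untreated dark seedlings was also the highest of the 551 for *CHAT*, with a median of -0.07 and a 95th percentile of 1.63. These dark ranks rest on the untreated *Ler* array. *CHAT* was chosen with these ratios known, so nothing is read from its place among the 551.

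For *CHAT* the genotypes lay closer together with MeJA than without it in both lights. This was so for 201 of the 551 probe sets (36.5%) and for 5837 of all 22746 (25.7%). In darkness, 684 probe sets (3.01% of all) had the untreated *Ler* array as the lowest by at least 2-fold, as *CHAT* did. Of the 551 probe sets, 50 (9.07%) had it so. The 551 had to be at least 2-fold higher with MeJA in dark *Ler*, which favours a low untreated *Ler* value.

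**Figure D3:**
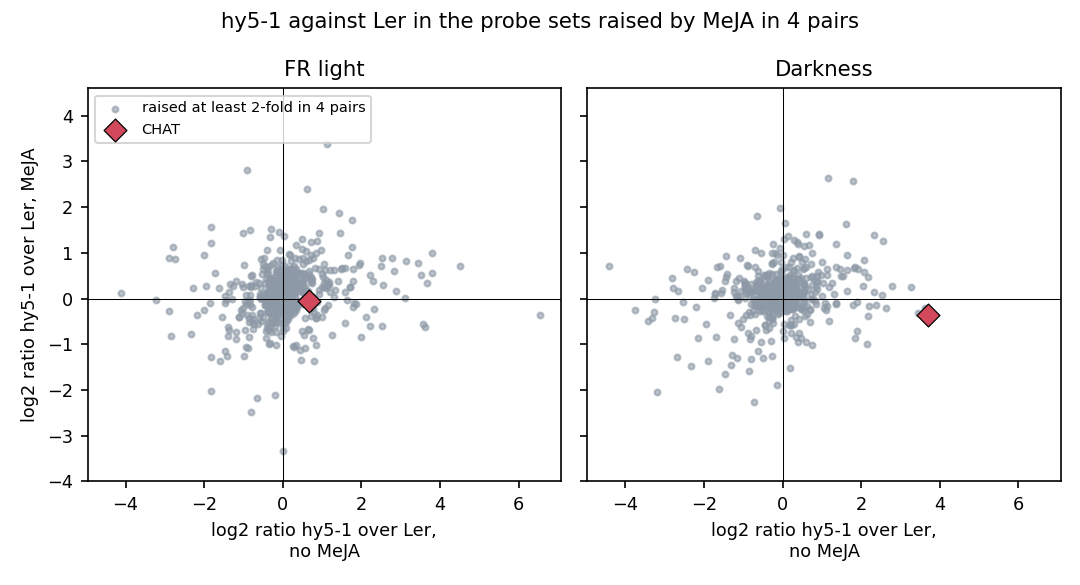
Log2 ratio of hy5-1 over Ler with MeJA (y axis) against the same ratio without MeJA (x axis), under FR light on the left and in darkness on the right. Grey points are the 551 probe sets at least 2-fold higher with MeJA in 4 pairs, and the red diamond is CHAT, which in darkness is the point farthest to the right at 3.70 and under FR light lies within the cloud at 0.66.

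The BAHD acyltransferase family, to which *CHAT* belongs, makes esters and amides that range from volatiles to anthocyanin decorations and lignin precursors. Of 61 other listed family genes, 45 had a named probe set of their own. For these genes the MeJA effect over the 4 pairs was tested in limma, each pair of genotype and light being a block, with adjustment over all probe sets. It called 6 of the 45 higher and 1 lower with MeJA, where 2.70% and 1.68% of all probe sets were called in these directions. The median of the 4-pair mean ratio was 0.14 over the 45 genes, against -0.08 over all probe sets. This list and the other gene lists were chosen with earlier results of these data known. Their calls are therefore no independent evidence.

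The family genes that rose were AT4G15390 with a mean log2 ratio of 3.85 (adjusted p = 0.031, standard error 0.50), AT5G47980 at 2.23 (adjusted p = 0.020), AT5G47950 at 1.97 (adjusted p = 0.033), AT3G50280 at 1.91 (adjusted p = 0.021), AT3G29635 at 1.75 (adjusted p = 0.014) and AT1G28680 at 0.92 (adjusted p = 0.042), by limma and each in 4 of 4 pairs. *BAT1*, which encodes a brassinosteroid-related acyltransferase, fell by 1.64 (standard error 0.20, adjusted p = 0.029 by limma), in 4 of 4 pairs. Several others had large ratios that did not pass, such as *SHT*, a spermidine hydroxycinnamoyl transferase gene, at 2.31 (standard error 0.51, adjusted p = 0.086 by limma), and AT1G78990 at -3.04 (adjusted p = 0.079 by limma). *FACT*, which encodes a fatty alcohol caffeoyl-CoA transferase, had -1.40, and *HCT*, a lignin gene, had 0.69. With any 1 of the 4 pairs left out, and so with fewer residual degrees of freedom, none of the 7 family calls passed (adjusted p between 0.067 and 0.160 by limma).

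Against these 45 genes *CHAT* had the highest MeJA ratio in *Ler* in both lights. Since *CHAT* was chosen with its ratios known, nothing is read from this place. The highest family value was 2.76 for AT4G15390 under FR light and 3.72 for *SHT* in darkness. In *hy5-1*, 5 family genes had a higher ratio than *CHAT* under FR light, led by AT4G15390 at 4.50, and 1 did in darkness, AT4G15390 at 5.19. At least 2-fold higher with MeJA under FR light were 13 of the 45 in *hy5-1* and 11 in *Ler*. The share of all probe sets was 11.2% and 12.8%. In darkness 16 were at least 2-fold higher in *hy5-1* and 13 in *Ler*, where the share of all was 12.2% and 11.2%. At least 2-fold lower were 10 of them in *Ler* under FR light, where 11.2% of all probe sets were lower, and 7 in each other comparison, where the share of all was 13.4% in *hy5-1* under FR light, 16.1% in *hy5-1* in darkness and 13.1% in *Ler* in darkness.

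AT4G15390 resembled *CHAT* in the sign of its MeJA ratios but not in the genotype ratios. Its *hy5-1* over *Ler* ratio was -2.04 in untreated dark seedlings, where *CHAT* had 3.70, and -1.84 under FR light without MeJA. With MeJA it was 0.23 in darkness and -0.11 under FR light. The family gene nearest to *CHAT* in the untreated dark genotype ratio was AT5G17540 at 3.49, and no family gene lay above *CHAT* there. The genotype ratio of AT5G17540 stayed above 0 in the other comparisons. It was 1.92 under FR light without MeJA, 0.69 under FR light with MeJA and 1.49 in darkness with MeJA. Its MeJA ratio was -2.03 in *hy5-1* and -0.80 in *Ler* under FR light, and -1.11 in *hy5-1* and 0.89 in *Ler* in darkness (mean -0.76). The limma model for genotype over the 4 pairs called 0 probe sets, with 1553 at an unadjusted p under 0.05, and so called none of the listed genes.

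**Figure D4:**
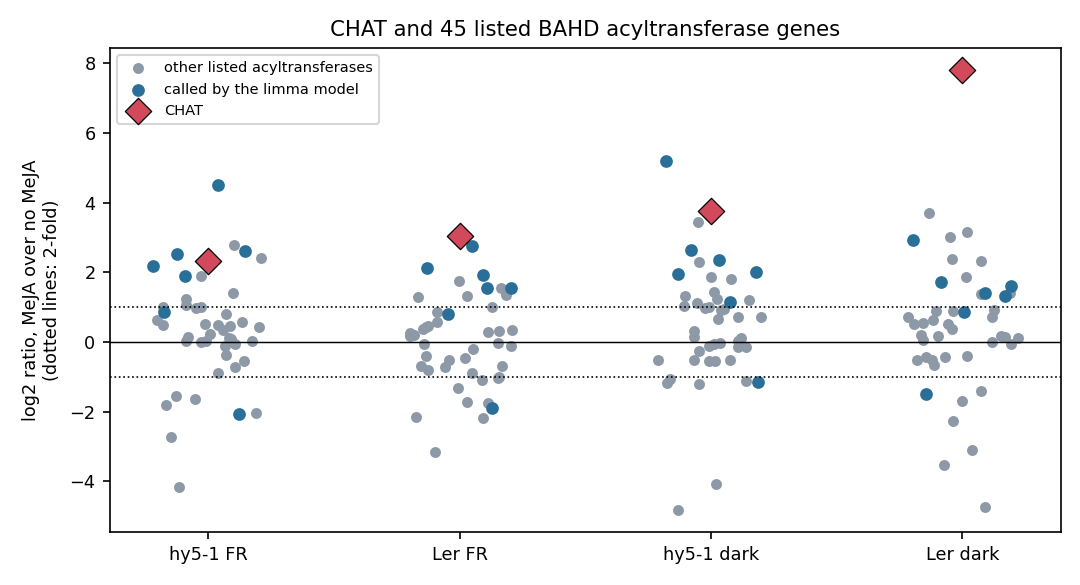
Log2 ratio of MeJA over no MeJA (y axis) in the 4 pairs of arrays (x axis) for CHAT (red diamonds) and 45 other listed BAHD acyltransferase genes, of which the 7 that the limma model called are blue. CHAT is highest in both Ler pairs, at 3.06 and 7.81, and is passed by AT4G15390 in both hy5-1 pairs.

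Few other genes of the green leaf volatile pathway could be matched to a probe set by name. The annotation used left 8730 of the 22746 probe sets unnamed, so unmatched genes may still be on the array. Here and below, measured genes are those with a named probe set of their own. Of 18 listed genes for lipases, fatty acid desaturases, lipoxygenases, hydroperoxide lyase and reductases, 3 had a named probe set, all of them listed for lipases. For these 3, limma called 0, with none at an unadjusted p under 0.05. The other steps were not judged here. *DGL* (*DONGLE*), a lipase gene, had MeJA ratios of -0.07 in *hy5-1* and 1.03 in *Ler* under FR light, and of 1.55 in *hy5-1* and -2.08 in *Ler* in darkness. In untreated dark seedlings its *hy5-1* over *Ler* ratio was -3.60, where *CHAT* had 3.70. AT1G02660 and AT3G62590 had mean MeJA ratios of 0.15 and -0.70.

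The jasmonate branch, which draws on the same fatty acid hydroperoxides, was measured through 7 of 23 listed genes of synthesis and turnover. The limma model called 4 of them higher with MeJA and 0 lower, where it called 2.70% of all probe sets higher and 1.68% lower. They were *JRG21* with a mean log2 ratio of 8.44 (adjusted p = 0.0023), AT5G05600 at 5.39 (standard error 0.18, adjusted p = 0.0050), AT2G38240 at 5.16 (adjusted p = 0.023) and *OPCL1*, a ligase gene of jasmonate synthesis, at 2.24 (adjusted p = 0.038), each higher in 4 of 4 pairs. The list was chosen with earlier results of these data known, so these calls and their p-values are no independent evidence. Unlike *CHAT*, *JRG21* and AT5G05600 had similar MeJA ratios in all pairs. Those of AT5G05600 were 5.57 in *hy5-1* and 5.74 in *Ler* under FR light, and 5.10 in *hy5-1* and 5.16 in *Ler* in darkness, with *hy5-1* over *Ler* ratios between -0.04 and 0.18. Without the *Ler* FR pair, *JRG21* and AT5G05600 passed the limma model at adjusted p of 0.034 and 0.037, and *OPCL1* and AT2G38240 did not (0.064 and 0.088). Without any of the other 3 pairs none of the 4 passed, and the lowest adjusted p by limma was then 0.051.

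Of 9 listed genes for other volatiles, 3 were measured and limma called 0 of them, with only *BSMT1* at an unadjusted p under 0.05. *BSMT1*, which encodes a methyltransferase of benzoic and salicylic acid, had MeJA ratios of 1.76 in *hy5-1* and 3.63 in *Ler* under FR light, and of 4.15 in *hy5-1* and 0.42 in *Ler* in darkness (mean 2.49, adjusted p = 0.13 by limma). In darkness its larger ratio was thus in *hy5-1*, whereas that of *CHAT* was in *Ler*. The cineole synthase gene *TPS-CIN* had a mean of 0.10 and AT5G44630 one of -0.21. Of 12 listed jasmonate response genes 4 were measured, and 1, the thionin gene *THI2.1*, was called higher by limma (2.70% of all probe sets were), at 6.50 (adjusted p = 0.022), but not with any 1 pair left out (0.063 to 0.107). Its ratio was 7.04 in *hy5-1* and 8.51 in *Ler* in darkness. This list, too, was chosen with earlier results known, so the *THI2.1* call is no independent evidence. The defensin gene *PDF1.2* had MeJA ratios of 2.12 in *hy5-1* and 0.14 in *Ler* under FR light, and of -3.20 in *hy5-1* and -2.86 in *Ler* in darkness (mean -0.95, adjusted p = 0.63 by limma). *MYC3* and *MYC4*, which encode transcription factors of the jasmonate response, had means of 0.13 and 0.20 and were not called. All 4 measured reference genes, among them *GAPC2*, stayed under 2-fold in the 8 ratios, the largest being a log2 ratio of 0.68.

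The genes with 8 centred values closest to those of *CHAT* were sought as a description of its pattern. Because they were picked on these same values, of which that of untreated dark *Ler* is the most extreme, their low value there and their ratios follow from the choice and are no finding. Likeness was measured as the root mean square difference over the 8 arrays, among 13285 other genes with a probe set of their own, and its median was 2.59. The closest was *LCR66*, which encodes a plant defensin, at 0.419. Its untreated dark *Ler* value was -5.44, and its MeJA ratios were 2.88 in *hy5-1* and 3.66 in *Ler* under FR light, and 3.65 in *hy5-1* and 7.46 in *Ler* in darkness. In untreated dark seedlings its *hy5-1* over *Ler* ratio was 3.62, and with MeJA it was -0.20. The other close genes were AT5G61290 at 0.571, AT1G54020 at 0.740, AT3G46490 at 0.759, AT5G38020 at 1.04, AT3G53600 at 1.04, AT2G22760 at 1.05 and AT4G11210 at 1.08, and the next gene stood at 1.11.

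The dark *Ler* MeJA ratios of these 8 genes, chosen for their likeness to *CHAT*, lay between 3.99 (AT4G11210) and 7.61 (AT1G54020). Their *hy5-1* over *Ler* ratios in untreated dark seedlings lay between 0.90 (AT2G22760) and 3.62 (*LCR66*). Under FR light their *hy5-1* over *Ler* ratios took both signs. AT1G54020 had 1.58 without MeJA and 0.67 with MeJA, whereas AT3G53600 had -0.19 without MeJA and -2.11 with MeJA. The Pearson correlation of these genes with *CHAT* over the 8 arrays lay between 0.921 and 0.994. The points share the arrays and the centring, and 153 genes reached a correlation of 0.9, so that this measure alone does not set them apart.

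**Figure D5:**
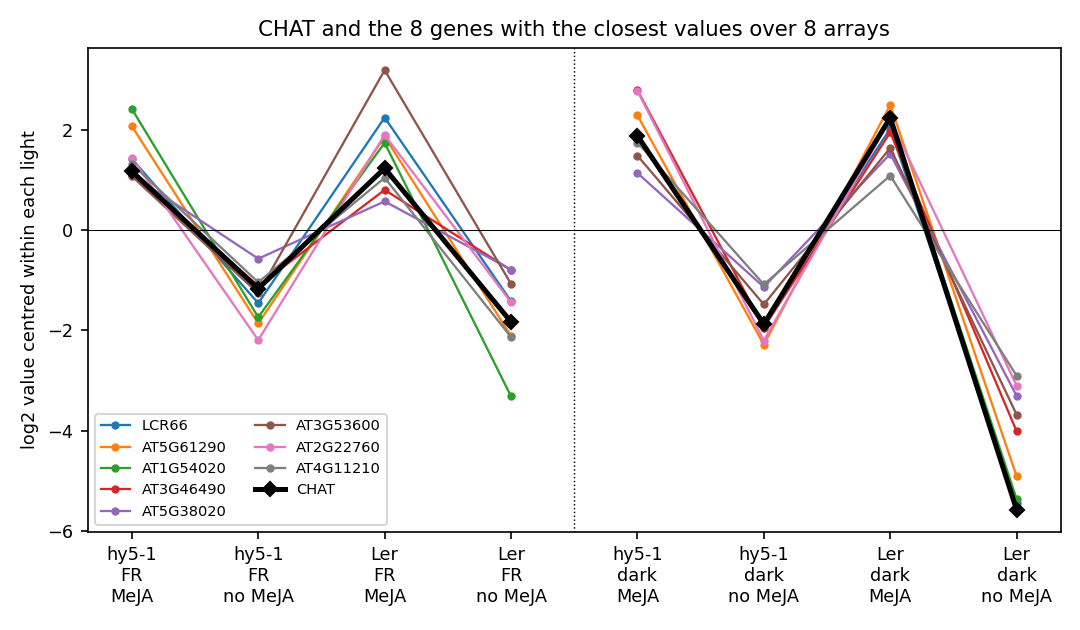
Centred log2 value (y axis) on the 8 arrays (x axis: genotype, light and MeJA) for CHAT (black) and the 8 genes closest to it (colours), with FR light left and darkness right of the dotted line. Among the 4 dark arrays all 9 profiles are lowest in untreated Ler, at -5.57 for CHAT, as the choice of these genes by likeness favours, and the 2 lights are centred separately and cannot be set against each other.

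The measured genes nearest to *CHAT* on its chromosome had small mean MeJA ratios. Between 3 and 9 other annotated genes lie between *CHAT* and each of them. The 3 nearest genes on either side that had a probe set of their own were AT3G03410, AT3G03420 and AT3G03440 on one side and AT3G03510, AT3G03550 and AT3G03570 on the other. Their mean MeJA log2 ratios lay between -0.14 and 0.29. In dark *Ler* the highest of their MeJA ratios was 1.26 for AT3G03510, which had -0.34 in dark *hy5-1*. For AT3G03410 the mean of -0.14 came from large ratios of opposite sign. They were 2.28 in *hy5-1* and 1.08 in *Ler* under FR light, and -2.19 in *hy5-1* and -1.73 in *Ler* in darkness. In untreated dark seedlings the *hy5-1* over *Ler* ratio was 1.55 for AT3G03410 and 1.13 for AT3G03510. For the other neighbours it lay between -0.28 and 0.31. Of all probe sets, 9.64% were at least 2-fold higher in *hy5-1* in that comparison.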

How the data were processed

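RNA of 8 whole-seedling samples was hybridized to Affymetrix ATH1 arrays, 1 per condition, and samples were grouped by their labels. The deposited values were put on a log scale by the authors and were taken as log2, since no source used here gives the base. The submitters' processing notes name MAS5 and the study's methods name GeneSpring GX, and no source used here gives the scaling between arrays. Each probe set was centred to a median of 0 over the 4 arrays of each light. The table holds 22810 probe sets. After 64 controls were left out, 22746 were analysed, of which 13436 were paired with 1 gene (13286 genes) by the array annotation updated to RefSeq names (TAIR10.1), 503 were paired with several genes, 77 lacked a locus, and 8730 are unnamed here.

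Log2 ratios were formed within a light. Fold thresholds were 2 and 0.5. The 4 pairs of each effect were fitted in limma 3.58.1 (R 4.3.3) with a block for each combination, 3 residual degrees of freedom and Benjamini-Hochberg adjustment at 0.05 over all probe sets. In these pairs the spread includes real differences between genotypes and lights. On simulated data the MeJA model found 5.97%, 46.3% and 74.2% of log2 changes of 1, 2 and 4 (67, 67 and 66 of 22746 probe sets). It also called 8 of the 22546 unchanged probe sets. Few probe sets were changed there, whereas the model called 995 in the deposited values, so these rates may not carry over. The precision is limited by the number of arrays.

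*CHAT* and the gene lists were chosen with earlier results of these data known. The genes named were *CHAT*, the called members of each list or else its 4 members with the largest mean MeJA ratio, the 8 genes most like *CHAT*, its 3 nearest measured neighbours on either side, and the genes next to it in each ranking. *SHT*, *FACT*, *HCT*, AT1G78990 and AT5G17540 were named after their values were seen. Alternatives were quantile normalization, array medians set to 0, trended and robust moderation, pairs left out, tied probe sets left out, a fold of 3, and Pearson correlation as the likeness.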

Additional observations from a re-analysis of the deposited data

Results flagged for a closer look

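The *hy5-1* over *Ler* log2 ratio of *CHAT* had opposite signs with and without MeJA in both lights. Under FR light it was -0.063 with MeJA and 0.66 without MeJA, and in darkness it was -0.36 with MeJA and 3.70 without MeJA. Each ratio sets 1 array against 1 array, and the difference was not tested. Both ratios with MeJA and the FR ratio without MeJA are under 2-fold, so only the untreated dark ratio passes the threshold of the study's methods.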

How the results depend on the processing

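All 8 *CHAT* ratios kept their sign and their side of 2-fold under quantile normalization and with array medians set to 0. The array medians already lay between -0.040 and 0.052, so setting them to 0 could shift a ratio only slightly. Quantile normalization gave MeJA ratios of 2.34 (*hy5-1*) and 2.71 (*Ler*) under FR light and 3.67 (*hy5-1*) and 7.45 (*Ler*) in darkness. It gave *hy5-1* over *Ler* ratios of -0.05 with MeJA and 0.32 without MeJA under FR light (0.66 as deposited) and -0.60 with MeJA (-0.36 as deposited) and 3.17 without MeJA in darkness. Those without MeJA then ranked 5429th under FR light and 242nd in darkness. The *hy5-1* minus *Ler* difference of MeJA ratios became -0.37 under FR light (-0.73 as deposited) and -3.77 in darkness. With each pair left out in turn, the mean MeJA ratio of *CHAT* lay between 3.05 and 4.87, and the mean genotype ratio between 0.079 (without the untreated dark pair) and 1.43, passing 2-fold in the other 3 cases. The MeJA model called 995 probe sets, 1476 with a trend, 879 with robust moderation, and 0 to 34 with a pair left out (34 without *Ler* FR), where 2 residual degrees of freedom remain. AT4G15390 passed 0.05 in the main model and not with a trend (adjusted p = 0.051 by limma). The genotype model called 0 under each alternative. At 3-fold, the counts for MeJA were 3082 in *hy5-1* and 3188 in *Ler* under FR light and 3559 in *hy5-1* and 3262 in *Ler* in darkness, and for genotype 2354 with MeJA and 2167 without MeJA under FR light and 2320 with MeJA and 2335 without MeJA in darkness. Likeness by Pearson correlation shared 2 of 8 genes with the main measure. The alternative of single probe sets did not apply, since *CHAT* has 1. Signal over background is not in the centred values.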

Other observations

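By Pearson correlation over the 8 centred values, the genes closest to *CHAT* were AT1G20310 at 0.997, AT5G38020 at 0.994 and AT2G48090 at 0.991, with *LCR66* at 0.988. These points share the arrays and the centring. In darkness, 1223 probe sets (5.38% of all) were at least 2-fold higher in *hy5-1* than in *Ler* without MeJA and within 2-fold with MeJA, as *CHAT* was, and 44 of them were among the 551 probe sets at least 2-fold higher with MeJA in 4 pairs.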
